A study of Mus musculus with 12 samples.

Results

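The fibroblast growth factor (FGF) genes of inner ear development and their receptors were read in sorted spiral ganglion neurons, the first neurons of the hearing pathway. The set was chosen by symbol and holds 10 genes: the secreted ligands Fgf3, Fgf8, Fgf9, Fgf10 and Fgf20, the intracellular family member Fgf13, the receptor tyrosine kinases Fgfr1, Fgfr2 and Fgfr3, and the receptor-like gene Fgfrl1. Of these, 9 matched a row among the 25674 genes of the count table, and 6 passed the filter on low counts. Fgf20 was not analysed here.

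All embryos were at E14.5 and carried a Neurod1-Cre transgene made from a bacterial artificial chromosome, together with the Rosa26 tdTomato reporter. The 6 control libraries (genotype Neurod1Cre; Rosa26tdTOM) carried no floxed allele. The 6 libraries labelled ISL1CKO came from embryos that also had both Isl1 alleles flanked by loxP sites (Neurod1Cre;Isl1loxP/loxP;Rosa26tdTOM). ISL1 is a LIM-homeodomain transcription factor, and Cre removes the flanked segment only in cells with Neurod1-driven Cre. By the labels' protocol, each library held 100 tdTomato-positive neurons sorted from both inner ears of 1 embryo of a mixed C57BL/6 and sv129 background. The labels tag the replicates as technical, whereas the design text calls them biological. P-values set the difference between the groups against the spread between these libraries, whichever kind of replicate they are.

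FGF ligands bind FGF receptors together with heparan sulfate and switch on the RAS, MEK and ERK kinases, which induce the ETS factors ETV1, ETV4 and ETV5. Sprouty, SPRED and DUSP6 proteins are induced by the same signal and dampen it. In the ear, FGF3 and FGF10 are known for their part in forming the otic vesicle and the semicircular ducts, FGF8 for patterning the cells beside inner hair cells through FGFR3, and FGF9 and FGF20 for growth of the mesenchyme and of the sensory progenitors. FGF13 and its relatives FGF11, FGF12 and FGF14 are not secreted and bind voltage-gated sodium channels. In the second heart field, Fgf10 is a known target of ISL1.

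Total counts ran from 11895603 to 13857480 per library, so that 3 counts, taken as the floor, equal 0.219 to 0.250 CPM, the count scaled to library size. Isl1 itself did not separate the groups at gene level: the log2 change, libraries labelled ISL1CKO over controls, was -0.15 (SE 0.11; edgeR adjusted p = 0.460), which does not show whether the floxed segment was removed, and the genotype rests on the labels. The libraries labelled ISL1CKO 2, 3 and 5 held both Xist and Y-linked transcripts, which goes against the labelled single embryo, so calls lost without them and values moved by over 1.5 times are given both ways. General neuronal genes marked all 12 libraries, with Tubb3 at 2769 CPM or more and Snap25 at 472 CPM or more. The 12 spiral ganglion neuron markers averaged 9.34 ± 0.0798 in log2(CPM + 1) in controls and 8.26 ± 0.403 in the libraries labelled ISL1CKO (SD over 6 libraries; by exact permutation p = 0.00216, or 0.00974 adjusted over 9 lists), and its members did not move together. Ntrk2 was at 377 and 53.9 CPM and Nefm at 3337 and 881 CPM, whereas Tubb3 was at 3210 and 3940 CPM, Stmn2 at 1896 and 2760 CPM, Elavl3 at 617 and 627 CPM and Snap25 at 626 and 635 CPM.

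The regions upstream of both members that fell are shown first, because gene-level counts sum all start sites of a gene. They are the 250 bases before a RefSeq start site on GRCm38.p6, 5′ to 3′ on the transcribed strand, for windows that lie in no GENCODE exon and end at a GENCODE transcript start. For Fgf10 the window is chr13:118714449-118714698, plus strand. For Fgf13, which has 4 RefSeq start windows, the one shown is chrX:59134437-59134686, minus strand. Capitals mark TAAT or its reverse complement ATTA, the core bound by many homeodomain proteins.
Fgf10: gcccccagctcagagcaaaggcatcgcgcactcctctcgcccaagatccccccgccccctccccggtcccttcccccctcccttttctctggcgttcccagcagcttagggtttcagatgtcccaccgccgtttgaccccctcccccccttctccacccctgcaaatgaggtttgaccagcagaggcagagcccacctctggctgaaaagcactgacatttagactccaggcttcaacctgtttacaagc
Fgf13: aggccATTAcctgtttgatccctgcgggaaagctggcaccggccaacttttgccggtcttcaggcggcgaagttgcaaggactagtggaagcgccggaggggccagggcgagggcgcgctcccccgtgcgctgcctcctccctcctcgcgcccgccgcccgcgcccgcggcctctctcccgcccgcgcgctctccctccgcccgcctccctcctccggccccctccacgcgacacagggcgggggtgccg
The Fgf10 window held 0 TAAT cores and 0 GATA cores on either strand, and the Fgf13 window held 1 TAAT core, 245 bases before the start site, and 0 GATA cores. For comparison, 54.9% of the 32851 RefSeq windows of the same length held TAAT and 53.6% held GATA on either strand. The windows were rich in G and C, at 61.2% for Fgf10 and 74.4% for Fgf13. In the other Fgf13 windows the number of TAAT cores was 0, 0 and 8. These counts describe the letters in the windows and nothing further.

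Fgf10 and Fgf13 fell, and the other 4 tested members did not pass the test. Both called members were among the most abundant genes of the family in controls. Across the transcriptome, 10.2% of the 14813 tested genes were called by edgeR (quasi-likelihood F-test, Benjamini-Hochberg threshold 0.05), with 5.19% called lower and 5.01% higher. Both called members had groups that did not overlap, as did 6.78% of tested genes, 3.65% lower and 3.13% higher. The 6 tested members had a median log2 change of -0.36, where all tested genes had 0.0045.

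Fgf10 (ENSMUSG00000021732, chromosome 13, 118669791 to 118792115, plus strand) encodes a secreted ligand that acts mainly through the epithelial form of FGFR2. In controls its level was 743 CPM at the lowest, 864 CPM at the median and 1048 CPM at the highest. In the libraries labelled ISL1CKO the lowest, median and highest levels were 106, 145 and 190 CPM. Every library labelled ISL1CKO was far below every control, the nearest pair being ISL1CKO 5 at 190 CPM and control 3 at 743 CPM. On average it was at 873 ± 104 and 143 ± 29.1 CPM (SD, n = 6), a 6.09-fold fall. The log2 change was -2.61 with SE 0.13 (95% interval -2.90 to -2.32; edgeR adjusted p = 1.60e-08), the 4th smallest p among the 14813 tested genes. Leaving out ISL1CKO 2, 3 and 5 gave -2.65. Among libraries with Y-linked transcripts and no Xist, Fgf10 was at 809 to 1048 CPM in 4 controls and at 120 and 154 CPM in 2 libraries labelled ISL1CKO. In bulk RNA, fewer cells that express a gene and less RNA per cell cannot be told apart. An antisense gene, Gm16263, shares 123 exonic bases with Fgf10 but had 40 counts in total against 79017 for Fgf10.

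**Figure D1:**
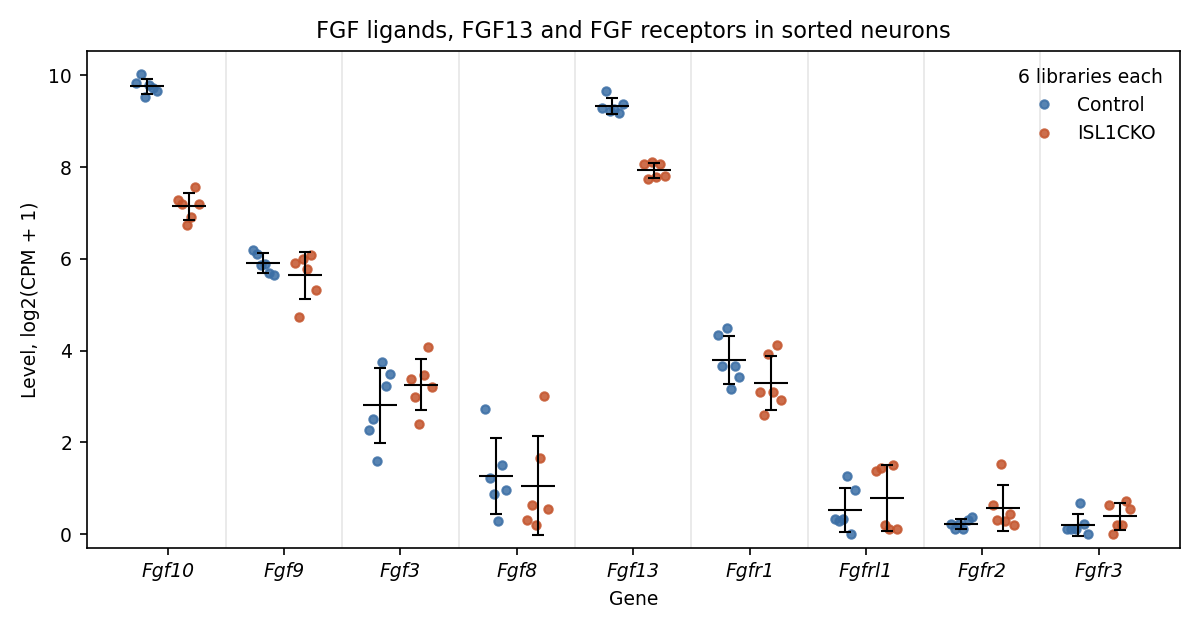
Level of the 9 members with counts in each library, as log2(CPM + 1), with 6 control libraries in blue and 6 libraries labelled ISL1CKO in orange; black bars are the mean and SD. Only Fgf10 and Fgf13 have groups that do not overlap, and Fgfr2, Fgfr3 and Fgfrl1 lie close to 0 in both groups.

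The remaining secreted members were not called. Fgf9 (ENSMUSG00000021974, chromosome 14, 58070547 to 58112720), a ligand with known roles in growth of the ear mesenchyme, was at 49.4 to 72.6 CPM with a median of 57.9 CPM in controls, and at 25.8 to 66.9 CPM with a median of 56.7 CPM in the libraries labelled ISL1CKO. The groups overlapped, and the log2 change of -0.21 had a 95% interval of -0.65 to 0.24 (edgeR adjusted p = 0.585). Fgf3 (ENSMUSG00000031074, chromosome 7, 144838083 to 144844436), which acts with Fgf10 in the early otic region, was at 2.00 to 12.4 CPM in controls and 4.29 to 16 CPM in the other group. Its values overlapped almost fully, and the interval of its log2 change, -0.54 to 1.34, does not exclude a doubling or a modest fall (edgeR adjusted p = 0.630). Fgf8 (ENSMUSG00000025219, chromosome 19, 45736798 to 45742915), the hair cell ligand, was low, exceeding the floor of 3 counts in 5 controls and 4 libraries labelled ISL1CKO. It had a median of 1.14 CPM in controls and 0.50 CPM in the libraries labelled ISL1CKO, and single libraries reached 5.65 CPM (control 1) and 7.0 CPM (ISL1CKO 5). Its log2 change of -0.03 had an interval of -2.05 to 1.99, too wide to show a difference at this depth (edgeR adjusted p = 0.989), and it was -0.91 without ISL1CKO 2, 3 and 5 (0.732).

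Per kilobase of exon, a scale on which genes can be compared, Fgf10 had the highest level of the 23 FGF ligand and receptor genes with counts in controls, at 190 ± 22.6 CPM per kb (SD, n = 6). Fgf13 was second at 162 ± 21.4 CPM per kb, and their ranges overlapped (162 to 228 and 144 to 203). Fgf5, a ligand outside the member set, came next at 38.0 ± 9.57 CPM per kb and Fgf9 after it at 12.8 ± 2.01, with no overlap between any of these steps. Fgf11 followed at 4.74 ± 0.960, with a range of 3.53 to 5.94 that overlapped those of Fgf3 and Fgf8. Fgf3, Fgfr1 and Fgf8, at 2.98 ± 1.75, 1.38 ± 0.556 and 1.33 ± 1.45 CPM per kb, overlapped one another. In the libraries labelled ISL1CKO the order at the top was Fgf13 at 60.7 ± 7.18, Fgf5 at 36.0 ± 8.73 and Fgf10 at 31.1 ± 6.32 CPM per kb. There the ranges of Fgf5 and Fgf10 overlapped (28.4 to 52.0 and 22.9 to 41.2), so these neighbours did not differ beyond their spread.

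The make-up of the secreted ligands shifted with the fall of Fgf10. Fgf10 supplied 76.9% ± 2.50 of the summed per-kb level of the 14 secreted FGF genes with counts in controls and 36.3% ± 4.30 in the libraries labelled ISL1CKO (SD, n = 6). This share follows from the fall of Fgf10 itself and is given without a test. Fgf5, a ligand best known for its control of the hair cycle, was itself at 95 ± 23.9 and 90.0 ± 21.8 CPM (SD, n = 6), with a log2 change of -0.08 (95% interval -0.48 to 0.32; edgeR adjusted p = 0.841). The only other secreted FGF that passed the filter was Fgf1 (log2 change -0.84, 95% interval -2.51 to 0.82; edgeR adjusted p = 0.550). Fgf2, Fgf6, Fgf7, Fgf15, Fgf16, Fgf17, Fgf18 and Fgf22 were too low to test. Among these, Fgf7, a mesenchymal ligand of the same receptor form as FGF10, exceeded 3 counts in 2 controls and 5 libraries labelled ISL1CKO, with 57 and 131 counts in all. Fgf15 had 1 count over all controls and 32 over the other group, where 2 libraries exceeded 3 counts.

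Fgf13 (ENSMUSG00000031137, chromosome X, 59062145 to 59568071, minus strand) encodes an intracellular FGF that binds sodium channels and microtubules. Its lowest, median and highest levels were 580, 619 and 814 CPM in controls and 212, 244 and 275 CPM in the libraries labelled ISL1CKO. No library of one group reached the other. Its mean was 649 ± 86.1 CPM in controls and 244 ± 28.9 CPM in the other group (SD, n = 6), a 2.66-fold fall with a log2 change of -1.41 and a SE of 0.10 (95% interval -1.63 to -1.19; edgeR adjusted p = 3.99e-07). Because the gene is X-linked, it was also read by the sex-linked transcripts of the libraries: among those with Y-linked transcripts and no Xist it was at 580 to 814 CPM in 4 controls and at 219 and 266 CPM in 2 libraries labelled ISL1CKO. With the mean Y-linked level as a covariate the log2 change was -1.42. Fgf10 fell further than Fgf13 did. The log2 ratio of Fgf10 to Fgf13 within a library, which no scaling between libraries can move, was 0.43 ± 0.12 in controls and -0.78 ± 0.32 in the libraries labelled ISL1CKO (SD, n = 6; 2-sided exact permutation p = 0.00216, the smallest this design allows).

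The relatives of Fgf13 did not move as one. Fgf14 (ENSMUSG00000025551, chromosome 14, 123977907 to 124677127), which tunes sodium channels near the axon start, rose from a lowest, median and highest level of 2.08, 3.99 and 7.41 CPM to 10.9, 34.0 and 52.1 CPM. All libraries labelled ISL1CKO lay above all controls but spread widely among themselves, and the log2 change was 2.84 with SE 0.41 (edgeR adjusted p = 3.17e-04). Fgf11 fell from 14.4 ± 2.92 to 7.17 ± 2.56 CPM (SD, n = 6), for a log2 change of -1.01 (edgeR adjusted p = 0.0268), and Fgf12 was at 7.27 ± 2.93 and 11.3 ± 3.32 CPM (edgeR adjusted p = 0.303). The Fgf11 call was lost without control 4 (edgeR adjusted p = 0.0572), control 5 (0.0596), ISL1CKO 4 (0.0522) or ISL1CKO 6 (0.0559), and with glial and macrophage marker levels as covariates (0.111). Summed per kb, the 4 intracellular FGFs were at 169 ± 21.2 CPM per kb in controls and 72.4 ± 10.3 in the libraries labelled ISL1CKO. Fgf13 remained the main one at 95.8% ± 1.2 and 84.1% ± 4.52 of that sum, while Fgf14 made up 0.630% ± 0.297 and 10.1% ± 4.50 (SD, n = 6), given as a description.

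Among 12 tested genes of the binding partners of intracellular FGFs, which are sodium channel subunits and the scaffold gene Mapk8ip2, 4 fell and 2 rose, where 5.19% and 5.01% of all tested genes did, and the median log2 change was -0.26. Scn9a, a subunit of sensory neurons, went from 271 ± 43.3 to 96.6 ± 30.8 CPM, with a log2 change of -1.49 (edgeR adjusted p = 9.91e-05). Scn10a and Scn11a, subunits of pain-sensing neurons, had log2 changes of -2.78 and -4.57 (adjusted p in edgeR, 0.00394 and 0.00102). Scn11a averaged 0.295 CPM in the libraries labelled ISL1CKO, near the floor and with 2 libraries at 0, and its log2 change was -5.46 without ISL1CKO 6. That of Scn10a was -3.50 without ISL1CKO 2, 3 and 5. Scn1a and the auxiliary subunit gene Scn3b rose, with log2 changes of 1.48 and 0.53 (adjusted p in edgeR, 0.0160 and 0.0281). Without ISL1CKO 2, 3 and 5, neither passed (edgeR adjusted p of 0.0866 and 0.226). Scn3b also lost its call with 1 library left out in 6 of 12 cases (edgeR adjusted p up to 0.0642, without control 6), and with the marker covariates (0.0980). Scn2a, Scn3a and Scn8a were not called (edgeR adjusted p of 0.773, 0.255 and 0.502).

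**Figure D2:**
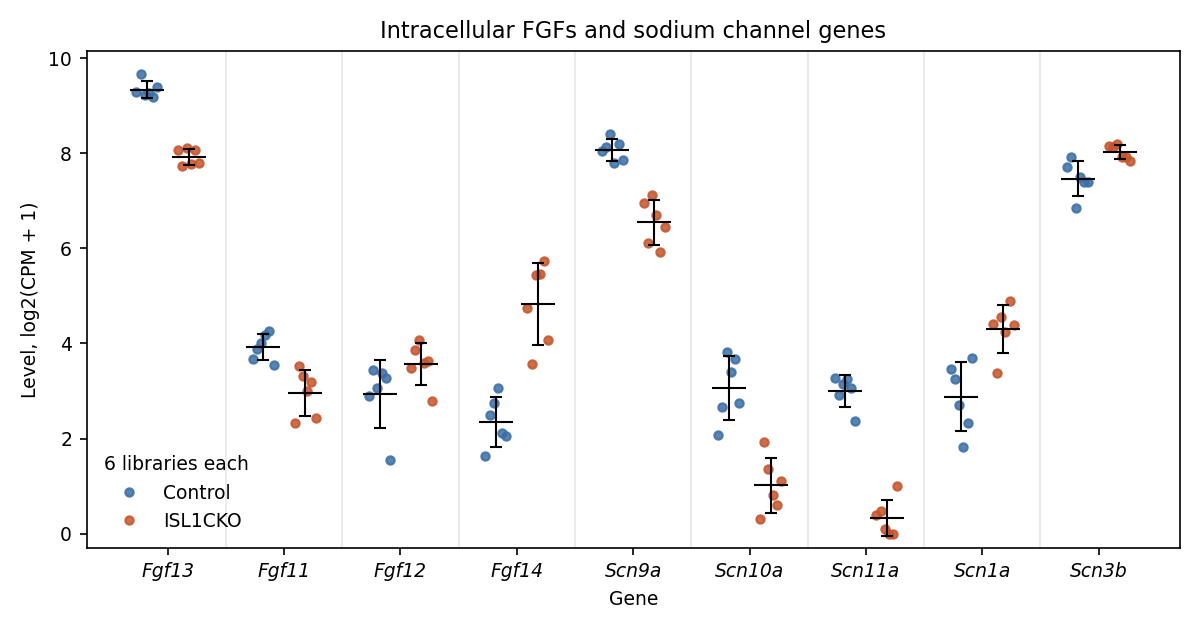
Level of the 4 intracellular FGF genes and of 5 sodium channel genes called in the test, as log2(CPM + 1) in each library; black bars are the mean and SD over 6 libraries. Fgf13 and Fgf11 are lower and Fgf14 is higher in the libraries labelled ISL1CKO, and of the channel genes Scn11a comes nearest to 0.

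FGF receptor transcripts were scarce in these neurons. Fgfr1 (ENSMUSG00000031565, chromosome 8, 25513654 to 25575718), a receptor widely used by neurons and sensory progenitors, was the only receptor that passed the filter. It was at 7.93 to 21.5 CPM with a median of 11.7 CPM in controls and at 5.04 to 16.3 CPM with a median of 7.57 CPM in the libraries labelled ISL1CKO. The groups overlapped, and the log2 change of -0.51 had a 95% interval of -1.27 to 0.24 (edgeR adjusted p = 0.398). Fgfr2, whose epithelial form is the main FGF10 receptor, had 13 counts over all controls and 45 over the libraries labelled ISL1CKO. Of those 45 counts most came from replicate 3, at 1.88 CPM, and only 1 control exceeded 3 counts. Fgfr3, known from supporting cells of the cochlea, had 13 and 26 counts, and Fgfrl1, a receptor that lacks the kinase part, had 41 and 71 counts. Each of these 3 genes exceeded 3 counts in at most 2 controls and in 3 libraries labelled ISL1CKO, so a difference was not detectable at this depth. RefSeq places Fgfr2 on chromosome 7 at 130162451 to 130266808, Fgfr3 on chromosome 5 at 33721724 to 33737068 and Fgfrl1 on chromosome 5 at 108694229 to 108706950. The GENCODE gene of Fgfr2 reaches 133123350. It shares 314 exonic bases with a gene that had 6973 counts in total, against 58 for Fgfr2. Fgfr3 shares 998 exonic bases with another annotated gene, so the counts of both receptors are uncertain.

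Of the genes that act beside the receptors, the FLRT genes stood out by size. FLRT proteins are membrane proteins that can bind FGF receptors and also guide axons. Of 4 tested co-receptor and modulator genes 2 rose and 0 fell, where 5.01% of all tested genes rose, with a median log2 change of 1.42. Flrt3 (ENSMUSG00000051379, chromosome 2, 140650914 to 140671469) was at 4.2, 8.58 and 21.0 CPM at the lowest, median and highest control, and at 112, 142 and 214 CPM in the libraries labelled ISL1CKO. Its 15.4-fold rise had a log2 change of 3.94 with SE 0.33 (edgeR adjusted p = 2.20e-06). Flrt1 rose from 21.7 ± 7.30 to 54.8 ± 13.1 CPM (SD, n = 6), for a log2 change of 1.34 (edgeR adjusted p = 0.00350), and Flrt2 was at 34.8 ± 24.6 and 98.2 ± 40.7 CPM without passing (log2 change 1.5, edgeR adjusted p = 0.131). The FGF carrier gene Fgfbp3 had a log2 change of -0.10 (edgeR adjusted p = 0.857).

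**Figure D3:**
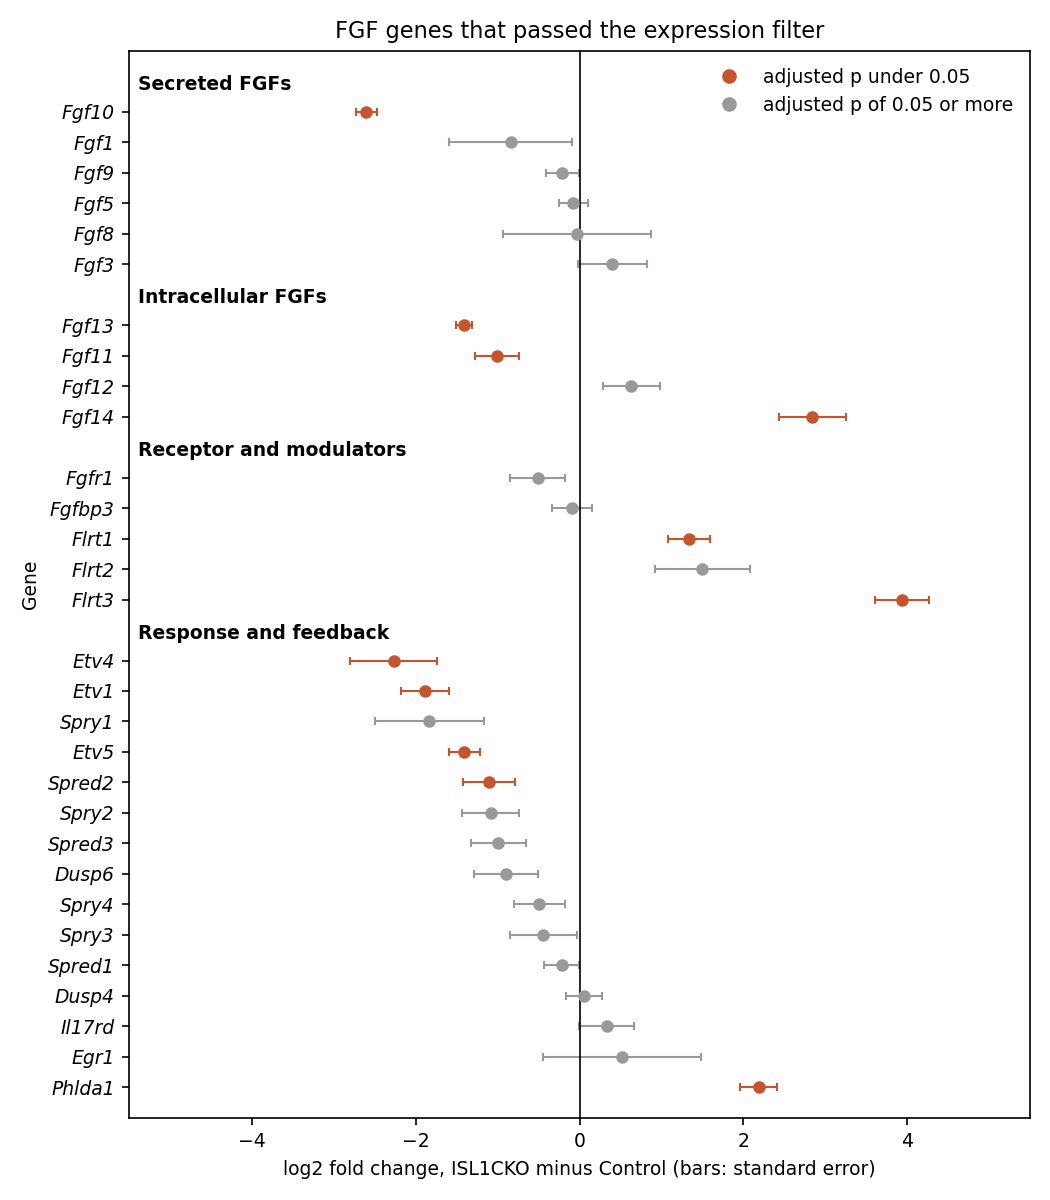
Log2 change of each tested FGF ligand, intracellular FGF, receptor, modulator and response gene, libraries labelled ISL1CKO minus controls, with the SE as bars; orange marks an adjusted p under 0.05. Fgf10 at -2.61 is the only called secreted ligand, and Flrt3 at 3.94 is the highest value shown.

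Heparan sulfate genes, whose products hold FGFs at the receptor, were mostly not called. Of 23 tested genes 1 fell and 1 rose, 8.70% against 10.2% of all tested genes and so near the background, and the median log2 change was -0.02. Hs6st1, a sulfotransferase that modifies heparan sulfate chains, fell from 24.5 ± 4.37 to 12.8 ± 2.54 CPM (SD, n = 6; log2 change -0.94, edgeR adjusted p = 0.00394). Gpc3, a glypican, rose from 0.981 ± 0.750 to 4.68 ± 1.92 CPM (SD, n = 6; log2 change 2.24, edgeR adjusted p = 0.0226). The Gpc3 call was lost without ISL1CKO 1 (edgeR adjusted p = 0.0500) or ISL1CKO 5 (0.0538), and both calls were lost with the marker covariates (edgeR adjusted p of 0.0881 for Gpc3 and 0.0535 for Hs6st1). Without ISL1CKO 2, 3 and 5 Gpc3 had an adjusted p of 0.0921 in edgeR.

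The signal transducers between receptor and nucleus showed small changes. Of 28 tested genes 3 fell and 0 rose, 10.7% against 10.2% of all tested genes, with a median log2 change of -0.07. Mapk3, which encodes the kinase ERK1, was at 184 to 205 CPM in controls and 82.0 to 133 CPM in the libraries labelled ISL1CKO. Its groups were far apart, and the log2 change was -0.84 with SE 0.11 (edgeR adjusted p = 1.90e-04). The adaptor genes Crk and Shc2 had log2 changes of -0.45 and -0.39 (adjusted p in edgeR, 0.00377 and 0.0281). Without ISL1CKO 2, 3 and 5 only Mapk3 was called, and the edgeR adjusted p of Crk and Shc2 was 0.0601 and 0.193. In that setting 767 of all genes were called, against 1511 with every library. Shc2 also lost its call without control 1 or without ISL1CKO 1, 2 or 5 (edgeR adjusted p of 0.0638, 0.0518, 0.0550 and 0.0661), and with the marker covariates (0.105).

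Of 15 tested response and feedback genes of the FGF pathway 4 fell and 1 rose, 33.3% against 10.2% of all tested genes, and the median log2 change was -0.90 against 0.0045. The log2 change was below 0 for 11 of the 15. All 3 ETS factor genes fell. Etv5 was at 90.2, 128 and 160 CPM at the lowest, median and highest control and at 32.9, 41.9 and 70.6 CPM in the libraries labelled ISL1CKO, with no overlap (log2 change -1.41, SE 0.19, edgeR adjusted p = 2.00e-04). Etv1 went from 29.8 ± 4.85 to 8.09 ± 4.14 CPM (SD, n = 6), with no overlap (log2 change -1.88, edgeR adjusted p = 6.20e-04). Etv4 ranged from 46.8 to 94.4 CPM in controls and from 1.46 to 40.9 CPM in the other group, a log2 change of -2.27 with SE 0.53 (edgeR adjusted p = 0.0131). It was -2.97 without ISL1CKO 1, the highest of its group. Leaving out ISL1CKO 2, 3 and 5 ended its call (log2 change -1.81, edgeR adjusted p = 0.0784).

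Among the feedback inhibitors only Spred2 was called. It fell from 10.9 ± 2.03 to 5.09 ± 2.64 CPM (SD, n = 6; log2 change -1.10, edgeR adjusted p = 0.0397), and it lost its call in 15 of 22 alternative settings, among them the set without ISL1CKO 2, 3 and 5 (0.310) and 10 of the 12 settings that left out 1 library. Spry2 was at 18.5 ± 3.79 and 8.69 ± 4.60 CPM, Spry1 at 6.16 ± 3.63 and 1.72 ± 1.07 CPM, and Dusp6, an ERK phosphatase, at 227 ± 85.2 and 122 ± 70.5 CPM (SD, n = 6). These 3 genes did not pass (edgeR adjusted p of 0.0605, 0.10 and 0.176). Spry4 and Dusp4 had log2 changes of -0.49 and 0.06 (adjusted p in edgeR, 0.381 and 0.914). Phlda1, a gene induced by growth factors, was the exception and rose from 37.6 ± 11.9 to 172 ± 48.2 CPM (SD, n = 6; log2 change 2.19, edgeR adjusted p = 1.35e-05). Without ISL1CKO 2, 3 and 5, 3 genes of the list were called, and without ISL1CKO 1 there were 8. Over all genes 767 were called without those 3 libraries, against 1511 with every library. Leaving out 1 library, ISL1CKO 1 among them, gave 1178 to 1517.

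The libraries labelled ISL1CKO differed among themselves in these response genes. ISL1CKO 1 was the highest of the 6 for 9 of the 15 genes, and ISL1CKO 5 was the lowest for 7. How often these libraries were highest or lowest over all genes was not counted, so this order is a description only. Etv4 was at 40.9 CPM in ISL1CKO 1 and at 1.46 CPM in ISL1CKO 5, and Dusp6 at 239 and 36.0 CPM. Fgf10 did not follow that order, with 154 CPM in ISL1CKO 1 and 190 CPM, the highest of the group, in ISL1CKO 5.

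**Figure D4:**
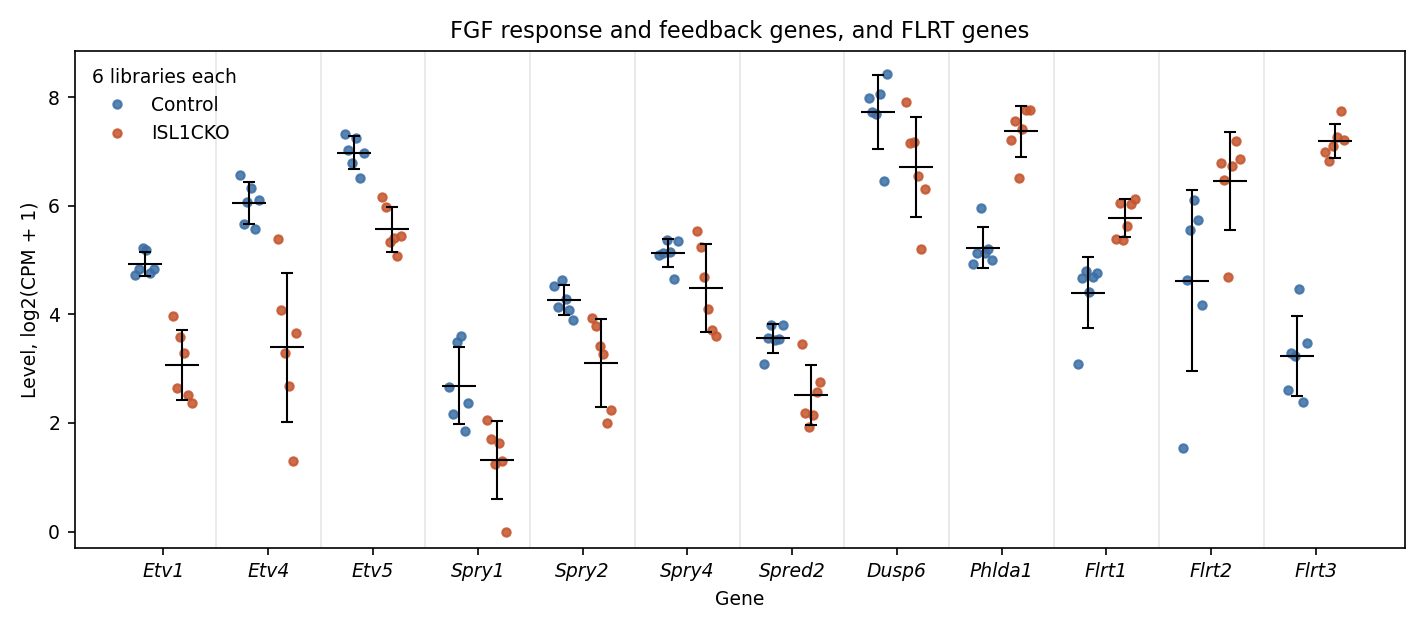
Level of FGF response and feedback genes and of the 3 FLRT genes, as log2(CPM + 1) in each library; black bars are the mean and SD over 6 libraries. Etv1, Etv4 and Etv5 are lower in every library labelled ISL1CKO than in any control, Phlda1, Flrt1 and Flrt3 are higher, and the Sprouty genes and Dusp6 overlap between groups.

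Of 6 tested genes known to act upstream of otic FGF expression, 1 fell and 1 rose, where 10.2% of all tested genes were called in either direction. Gata3, a zinc finger factor whose loss in mice is known to reduce otic Fgf10, was at 1008 to 1657 CPM in controls and at 18.2 to 528 CPM in the libraries labelled ISL1CKO, with no overlap (log2 change -2.71, SE 0.57, edgeR adjusted p = 0.00961). Within that group it was highest in ISL1CKO 1 and lowest in ISL1CKO 5, and a link to the response genes was not tested. Neurod1, whose promoter drives the Cre transgene, rose from 1471 ± 351 to 2715 ± 621 CPM (SD, n = 6; log2 change 0.88, edgeR adjusted p = 0.00435). Besides Fgf10, the named pathway genes Gata3, Neurod1, Scn9a, Phlda1, Spry1, Shc2, Hs6st1, Fgf14 and Fgfr1 each share exonic bases with another annotated gene. So do the low-count genes Fgf2, Fgf15, Fgf22, Fgfr2 and Fgfr3, and the counts of all these genes carry that uncertainty. Eya1, a co-activator in otic development, had a log2 change of -0.22 (edgeR adjusted p = 0.341).

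Fgf10 lies on the same chromosome as the floxed gene, its annotated start 2360102 bases from that of Isl1. The floxed allele was present only in the embryos labelled ISL1CKO, so alleles linked to it and the loss of ISL1 cannot be told apart by this design. Of 35 tested genes that start within 5 Mb of the Isl1 start, Fgf10 included, 6 fell and 4 rose, 28.6% against 10.2% of all tested genes. The noncoding gene 4933413L06Rik, also among the called genes nearest to Isl1, went from 5.32 ± 0.702 to 1.76 ± 0.756 CPM (SD, n = 6; log2 change -1.59, edgeR adjusted p = 0.0105). Within 5 Mb the fall of Fgf10 was the largest. Nnt, chosen for mention after its value was seen because C57BL/6J mice are known to carry a deletion in it, starts 3.10 Mb from Isl1 and rose from 2.90 ± 1.23 to 7.52 ± 1.40 CPM with no overlap (SD, n = 6; log2 change 1.37, edgeR adjusted p = 0.0305). Without ISL1CKO 2, 3 and 5, 4 of the genes within 5 Mb were called. In that setting 767 of all genes were called, against 1511 with every library.

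**Figure D5:**
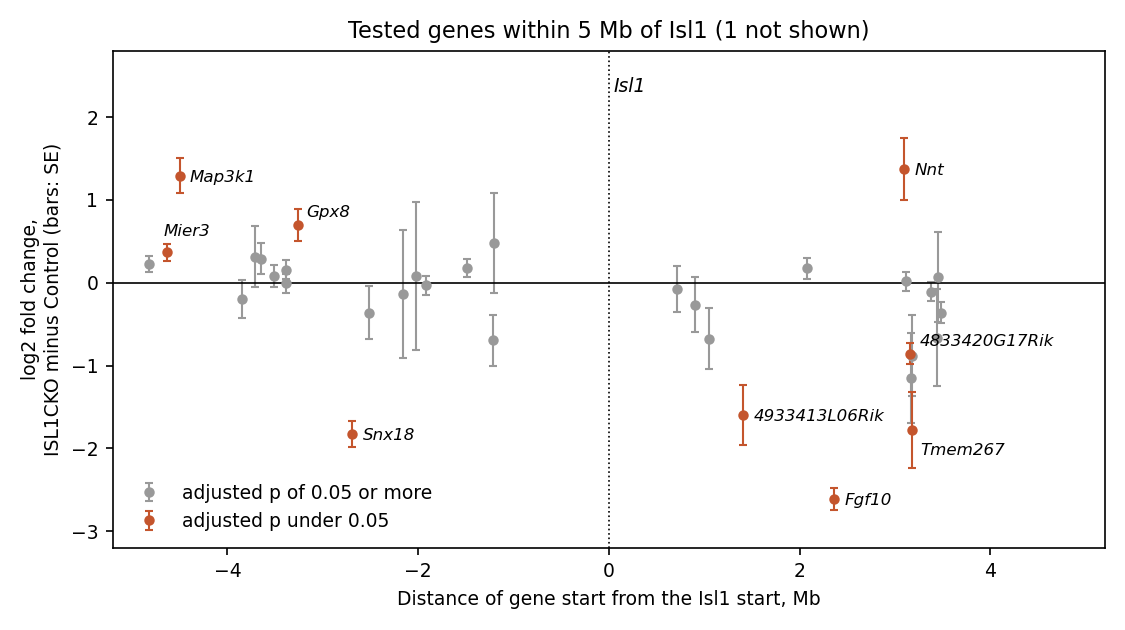
Log2 change of tested genes whose start lies within 5 Mb of the Isl1 start (1 of 35 not shown), against the distance in Mb, with the SE as bars; orange marks an adjusted p under 0.05. Fgf10, at 2.36 Mb and -2.61, lies lowest, and called genes lie on both sides of 0 and of Isl1.

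Over the 12 libraries, the genes whose log2(CPM + 1) was most like that of Fgf10, among 9912 tested genes averaging 3 or more in log2 CPM, were Laptm4b, Chrdl1, Helt, Epb41l3 and Fgf13. Pearson's r was 0.99, 0.98, 0.98, 0.98 and 0.97, as a description of 12 libraries that fall into 2 groups. Centred on the group means, r was 0.54, 0.53, -0.05, 0.66 and 0.33, so the likeness came largely from the difference between the groups.

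Other cell types that the sort could hold were read from marker lists, as the mean log2(CPM + 1) of each list per library. Schwann and satellite glia markers, cells that express FGF receptors, were at 0.874 to 2.37 in controls and 0.859 to 3.49 in the libraries labelled ISL1CKO, and their summed level reached 161 and 231 CPM. The groups' ranges overlapped (exact permutation p = 0.374, adjusted p = 0.421 over 9 lists). Of this list all 9 genes exceeded 3 counts in some library, and 3 averaged under 1 CPM. Macrophage markers ran from 0.201 to 5.14 and from 0.124 to 5.60, with summed levels of up to 402 and 740 CPM (exact permutation p = 0.292, adjusted p = 0.412). The macrophage difference was 1.27 with all libraries and 3.02 without ISL1CKO 2, 3 and 5 (exact permutation p = 0.0833). Otic epithelium markers, a known source of Fgf3, Fgf10 and Fgf20, stayed under 1 in every library, with summed levels of 6.42 to 18.3 CPM and 2.44 to 10.1 CPM, most of it Otol1 in controls. Otol1 averaged 12.9 CPM in controls and 2.61 CPM in the libraries labelled ISL1CKO, and Epcam, Cdh1 and Oc90 each averaged under 1 CPM in both groups. The part of this list in the difference of any FGF gene was not tested. With glial and macrophage levels as covariates the log2 changes of Fgf10 and Fgf13 were -2.62 and -1.30.

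Mesenchyme markers averaged 1.21 ± 0.159 in controls and 2.02 ± 0.258 in the libraries labelled ISL1CKO (SD over 6 libraries; by exact permutation p = 0.00216, or 0.00974 adjusted). Of 10 genes with counts 5 averaged under 1 CPM, the summed levels were 38.6 to 84.5 CPM and 72.0 to 122 CPM, Col1a1 averaged 0.234 and 0.564 CPM, and Tbx18 went from 1.09 to 39.5 CPM while Twist1 averaged 1.13 and 0.0129 CPM. The part of this list in the difference of any FGF gene was not tested. Vestibular neuron markers averaged 3.94 ± 0.124 and 4.29 ± 0.198 (SD over 6 libraries; by exact permutation p = 0.00649, or 0.0195 adjusted), with Pou4f1 at 1068 and 929 CPM and Nhlh2 at 429 and 904 CPM, while Tlx3, Calb2 and Hmx3 averaged under 2 CPM in both groups. Whether the share of vestibular neurons moved with Fgf10 was not tested. Hair cell markers averaged 3.05 ± 0.475 and 2.39 ± 0.266 (SD over 6 libraries; by exact permutation p = 0.0173, or 0.0390 adjusted), with Pou4f3 and Gfi1 under 1 CPM, Ccer2 at 36.7 and 3.83 CPM and Myo6 at 407 and 410 CPM. The mitochondrial share of counts was 1.05% to 1.65% in controls and 0.845% to 1.02% in the other group. Their part in the FGF differences was not tested. Endothelium and erythroid markers did not differ beyond the spread (adjusted p of 0.101 and 0.476, exact permutation tests).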

How the data were processed

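RNA was measured in 12 libraries of sorted neurons, 6 per group. The authors deposited 1 table of whole-number counts per Ensembl gene, not normalized. The submitters' processing notes name cutadapt 1.18, Bowtie 1.2.2, STAR 2.7.0c, featureCounts and GRCm38.p6, with no role or order. The annotation and the use of strand are not given in the sources used here, so counts of genes that overlap on opposite strands are uncertain. The smallest gene total was 10 counts, and 0 columns were left unmapped.

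Counts were filtered with filterByExpr (minimum count 10), scaled with TMM and tested with edgeR 4.0.16's robust quasi-likelihood F-test under R 4.3.3, without covariates. Benjamini-Hochberg adjustment ran over all 14813 tested genes (threshold 0.05). A standard error is the log2 fold change divided by the square root of F, and 95% intervals use 10 residual degrees of freedom. Levels are CPM after TMM scaling, divided by GENCODE M21 union exon length for per-kb levels. Gene coordinates are GENCODE M21 on GRCm38 unless RefSeq is named, and upstream sequences are RefSeq's, found for 7 of the 10 members. Single values and marker lists were compared by exact 2-sided permutation over 924 splits. Floors and intervals cover counting error or library spread only, since reads without molecular identifiers are not independent molecules. The test was also run on counts simulated from the means and dispersions of these data, which cannot show faults of the real libraries.

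The members and lists were chosen with earlier results of these data known. Genes named are Isl1, the members, the FGF family, up to 6 called genes per pathway list by smallest p, the 3 called genes nearest to Isl1 and the 5 most like Fgf10, and 4 genes are not reported here. Uncalled list genes were named without a set rule, and many uncalled genes of the lists, falling or rising, are not named. Alternatives tried were scaling by DESeq2 size factors or the upper quartile, testing every gene or those averaging 5 CPM, the Wald test of DESeq2 1.42.0, limma 3.58.1 voom with sample weights, the replicate block, 2 kinds of covariate, and libraries left out.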

Additional observations from a re-analysis of the deposited data

Results flagged for a closer look

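Dixon's test for a single far value picked out 10 of the 80 sets of 6 libraries examined, and about 4 would be picked by chance. Among the members, Fgf8 reached 5.65 CPM in control 1 against 1.82 CPM in the next control, and 7.0 CPM in ISL1CKO 5 against 2.17 CPM in the next library of that label. Fgf13 was at 814 CPM in control 2, where the next control had 668 CPM. Without that library the log2 fold change of Fgf13 was -1.34. Fgfr2 stood at 1.88 CPM in ISL1CKO 3 against 0.554 CPM, and Fgfr3 at 0.593 CPM in control 4 against 0.159 CPM, each a matter of few counts.

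Of the pathway genes, Flrt1 was low in control 1, at 7.48 CPM where the next lowest control had 20.4 CPM. Flrt3 was high in control 4, at 21.0 CPM against 10.1 CPM. Etv4 kept 40.9 CPM in ISL1CKO 1, against 15.8 CPM in the next library of its group. Phlda1 was at 61.5 CPM in control 3, against 36.1 CPM. The mesenchyme marker level was lowest in control 3, at 0.908 against 1.2 in log2(CPM + 1).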

How the results depend on the processing

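Fgf10 and Fgf13 stayed called and lower in all 22 alternatives, with log2 changes of -2.70 to -2.53 and -1.47 to -1.30. None of the 22 other named genes that were called reversed. The direction of Fgf8, never called, turned with the library left out (-1.32 to 0.76). The otic epithelium marker difference, which never passed, also changed sign over its 14 alternatives (-0.14 to 0.22). Over all genes, 1001 were called (501 lower) with Schwann cell and macrophage levels as covariates, and 767 (400 lower, 367 higher) without ISL1CKO 2, 3 and 5. Leaving out 1 library gave 1178 to 1517. Within 5 Mb of Isl1, 4 genes were called without those 3 libraries and 7 to 10 with 1 library left out, and a window of 2 Mb held 2. The hair cell marker difference was -0.70 without the 3 libraries (exact permutation p = 0.0714), and that of endothelium ran from 0.17 to 0.37 with 1 library left out, passing without ISL1CKO 5 or 6. The DESeq2 Wald test called 8 of the response genes and 5 of the transducers. Over all genes the 22 alternatives, DESeq2 among them, called 767 to 2082, against 1511 in the main fit. A window of 2 Mb holds fewer genes by its size. For the other settings, sets with fewer libraries included, the cause was not tested. Leaving out ISL1CKO 2, 3 and 5 both shrinks that group and removes the libraries with transcripts of both sexes, which cannot be told apart here. Of 481 recomputed values for 22 other named genes, 43 lost their call, in 9 genes.

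Replicate numbers did not pair the libraries: same-numbered deviations correlated at -0.06 to 0.15, and 2 controls correlated best with their own number. With the replicate block 1450 genes were called, and Fgf10 and Fgf13 had log2 changes of -2.62 and -1.41.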
